A study of Rattus norvegicus with 30 samples.

Results

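The 4 genes described here, *Nrep*, *Dlgap3*, *Prima1* and *Csmd1*, were taken from the 32545 genes of the mRNAseq table and were chosen by their measured values, because their transcripts were strongly lower in the kidney cortex (Cx) of rats on a high salt (HS) diet. They do not belong to 1 pathway. *Nrep*, also called P311, encodes a small intracellular protein that promotes the translation of transforming growth factor beta (TGF-beta) and is known from wound repair and fibrosis. *Dlgap3* encodes a scaffold protein of the postsynaptic density that links Dlg and Shank proteins, and *Prima1* encodes the membrane anchor that holds acetylcholinesterase at the cell surface of neurons. *Csmd1* encodes a large membrane protein with CUB and sushi domains that inhibits complement activation, and it is best known from the brain.

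The samples were the right kidney Cx and outer medulla (OM) of male Sprague-Dawley rats, an outbred strain with normal blood pressure. The low salt (LS) groups ate 0.4% NaCl, and the HS14 and HS21 groups were switched from it to 4.0% NaCl for 14 and 21 d. Each of the 6 groups of tissue and diet held 5 libraries, which makes 30 in all. Ages were not given in the labels, and a change with age between the times cannot be told apart from the diet. The labels number the libraries but do not say that each came from its own rat, so P-values measure the spread between these libraries. The libraries were made from poly(A) RNA of whole tissue pieces, in which fewer cells of a type and less RNA per cell cannot be told apart. HS14 and HS21 were both compared with the same 5 LS libraries, so the values of the 2 time points are not independent of each other.

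The total count on genes was 5408126 in replicate 10 of OM HS14 and 12748841 to 21842843 in the other 29 libraries. The tissue labels were checked with segment markers. *Slc12a3*, the thiazide-sensitive cotransporter of the cortical distal convoluted tubule, was at 979 to 2684 CPM (the count of a gene relative to its library's scaled total) in the 15 Cx libraries. It was at 8.61 to 50.6 CPM in 14 OM libraries and at 354 CPM in replicate 2 of OM LS. That library also had the highest OM value of the proximal tubule phosphate transporter *Slc34a1*, 4389 CPM against 127 to 1467 CPM in the other OM libraries. Values of the 4 genes in the OM are therefore given with and without replicate 2 of LS.

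On the Rnor_6.0 build of the files, *Nrep* (ENSRNOG00000020467) lies at chr18:26185259-26211445 on the minus strand, *Dlgap3* (ENSRNOG00000014302) at chr5:145257714-145304536 on the plus strand and *Prima1* (ENSRNOG00000008915) at chr6:127075954-127127413 on the minus strand. *Csmd1* (ENSRNOG00000030719) lies at chr16:78539489-78850222 on the plus strand. All are annotated as protein coding, and the values are sums over the exons of each gene. The gene length given with the counts was 435 bases for *Nrep*, 3688 for *Dlgap3*, 3445 for *Prima1* and 11622 for *Csmd1*. *Csmd1* overlaps 1 other annotated gene, AABR07026489.1, on the same strand, and reads from the shared stretch cannot be told apart. The other 3 overlap none.

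The start regions of 3 of the 4 genes are shown because these transcripts were low in the same Cx libraries, and the window around an annotated start is where promoter motifs of the genes can be compared. They were taken from RefSeq (build GRCr8) and run from 250 bases before to 50 bases after an annotated start, 300 bases in all, written 5′ to 3′ along the gene. The window of *Nrep* is chr18:25320693-25320992 on the minus strand, that of *Dlgap3* is chr5:144800015-144800314 on the plus strand and that of *Prima1* is chr6:128154587-128154886 on the minus strand. Capitals mark matches to the motifs named after the sequences.
Nrep: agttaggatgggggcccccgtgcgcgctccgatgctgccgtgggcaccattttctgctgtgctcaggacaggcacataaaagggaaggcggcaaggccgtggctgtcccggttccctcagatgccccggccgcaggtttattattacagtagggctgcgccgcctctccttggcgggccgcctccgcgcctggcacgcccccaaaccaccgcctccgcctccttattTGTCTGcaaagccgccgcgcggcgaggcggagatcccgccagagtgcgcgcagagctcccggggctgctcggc
Dlgap3: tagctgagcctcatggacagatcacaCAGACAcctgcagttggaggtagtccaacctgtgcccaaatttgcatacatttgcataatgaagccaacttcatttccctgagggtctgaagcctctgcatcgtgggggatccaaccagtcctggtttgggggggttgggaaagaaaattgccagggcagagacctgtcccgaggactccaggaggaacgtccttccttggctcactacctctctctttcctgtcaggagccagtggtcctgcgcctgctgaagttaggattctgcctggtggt
Prima1: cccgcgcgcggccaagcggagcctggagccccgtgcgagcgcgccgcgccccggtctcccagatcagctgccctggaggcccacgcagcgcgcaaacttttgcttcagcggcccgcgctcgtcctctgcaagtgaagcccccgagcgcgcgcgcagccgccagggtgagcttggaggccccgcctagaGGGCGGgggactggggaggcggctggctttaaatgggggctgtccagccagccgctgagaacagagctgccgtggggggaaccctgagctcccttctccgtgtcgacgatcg

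The windows differed in base composition. G and C made up 68% of the *Nrep* window and 72% of the *Prima1* window, with 30 and 34 CG dinucleotides. The median of 33469 RefSeq promoter windows was 51.7% (quartiles 44.7% and 60.3%), with 7 CG dinucleotides. The *Dlgap3* window was at 54% with 4 CG dinucleotides, and it starts from 1 annotated transcript start inside the RefSeq gene span. The Smad-type motif CAGACA, read on both strands, was found once in the *Nrep* window, with its first base 23 bases before the start and on the opposite strand, and once in the *Dlgap3* window, 224 bases before the start. This motif stood in 21.1% of all windows. The GC box GGGCGG was found once in the *Prima1* window, 62 bases before the start, and in 33.1% of all windows. None of the 3 windows held the TATA box TATAAA (14.2% of all windows), the CCAAT box (37.5% of all windows), the E-box CACGTG (6.42% of all windows) or the cyclic AMP response element TGACGTCA (1.83% of all windows). The palindromic glucocorticoid response element, which stood in 0.0149% of all windows, was not found either. Each window held a single match, so none overlap. A match is a stretch of letters, and no binding was measured. *Csmd1* is given by name alone.

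*Nrep* was abundant in the Cx on LS and lower at each later time. The 5 LS libraries (replicates 1 to 5) were at 156, 121, 135, 145 and 105 CPM, the HS14 libraries at 57.3, 62.1, 39.1, 46.7 and 34.1 CPM and the HS21 libraries at 22.3, 33.3, 38.8, 27.8 and 17.7 CPM. Every HS library was below every LS library, and 4 of the 5 HS21 libraries were below the lowest HS14 library. The means were 132 ± 19.9 CPM on LS, 47.9 ± 11.8 at HS14 and 28.0 ± 8.42 at HS21 (SD, n = 5). The log2 ratio to LS, fitted with edgeR, was −1.48 (SE 0.16) at HS14 and −2.24 (SE 0.19) at HS21, and that of HS21 to HS14 was −0.77 (SE 0.22).

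*Prima1* had the highest count of the 4 genes in the Cx on LS, and its mean was similar at both HS times. Its LS libraries were at 197, 200.2, 171, 218 and 118 CPM, the HS14 libraries at 33.5, 65.0, 24.6, 24.0 and 26.7 CPM and the HS21 libraries at 30.9, 37.5, 48.4, 35.7 and 24.7 CPM. The HS14 and HS21 libraries overlapped each other throughout, and replicate 7 of HS14 was the highest of the 10. The means were 181 ± 38.9 CPM on LS, 34.8 ± 17.3 at HS14 and 35.4 ± 8.79 at HS21 (SD, n = 5). The log2 ratio to LS was −2.39 (SE 0.27) at HS14 and −2.36 (SE 0.19) at HS21, with 0.037 (SE 0.28) between the HS times. The word steadily in the working name of these genes therefore does not describe *Prima1*, whose lower level was reached by 14 d and did not differ at 21 d beyond the spread between libraries.

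*Csmd1* was lower at HS14 and slightly lower again in most HS21 libraries. In the Cx its LS libraries were at 26.8, 18.4, 36.0, 39.3 and 49.5 CPM, the HS14 libraries at 8.50, 6.77, 6.85, 10.1 and 5.59 CPM and the HS21 libraries at 3.94, 3.19, 6.01, 3.93 and 9.52 CPM. All HS libraries were below all LS libraries, while HS14 and HS21 overlapped. Means were 34.0 ± 11.9, 7.55 ± 1.74 and 5.32 ± 2.58 CPM (SD, n = 5). Relative to LS the log2 ratio was −2.17 (SE 0.24) at HS14 and −2.68 (SE 0.32) at HS21. Between HS21 and HS14 it was −0.50 (SE 0.29), and 3 of the 5 HS21 libraries were below the lowest HS14 library.

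*Dlgap3* had the lowest counts and the largest log2 ratios of the 4. On LS the Cx libraries held 35, 36, 57, 61 and 30 read pairs of this gene, at 2.68, 2.82, 4.39, 4.48 and 1.93 CPM. At HS14 they held 8, 15, 2, 5 and 7 read pairs (0.549, 1.09, 0.124, 0.248 and 0.455 CPM), and at HS21 2, 12, 9, 3 and 3 (0.127, 0.797, 0.622, 0.196 and 0.204 CPM). The LS and HS libraries did not overlap, and the HS14 and HS21 libraries did. Means were 3.26 ± 1.13, 0.493 ± 0.374 and 0.389 ± 0.300 CPM (SD, n = 5). Relative to LS the log2 ratio was −2.76 (SE 0.44) at HS14 and −3.05 (SE 0.44) at HS21. With so few read pairs per HS library a difference between HS14 and HS21 was not detectable at this depth, and the gene was below the filter on low counts in that comparison.

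In all 4 genes the HS14 and the HS21 libraries of the Cx were below the LS libraries without overlap. This held for 335 of 14181 genes tested at HS14 (2.36%) and for 2083 of 14299 at HS21 (14.6%). From the most lowered gene upward, the log2 ratios ranked 26 (*Nrep*), 6 (*Dlgap3*), 10 (*Prima1*) and 12 (*Csmd1*) at HS14 and 12, 5, 10 and 8 at HS21. The rule that chose them states no threshold. These values chose the genes, so they are a description and were not tested.

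**Figure D1:**
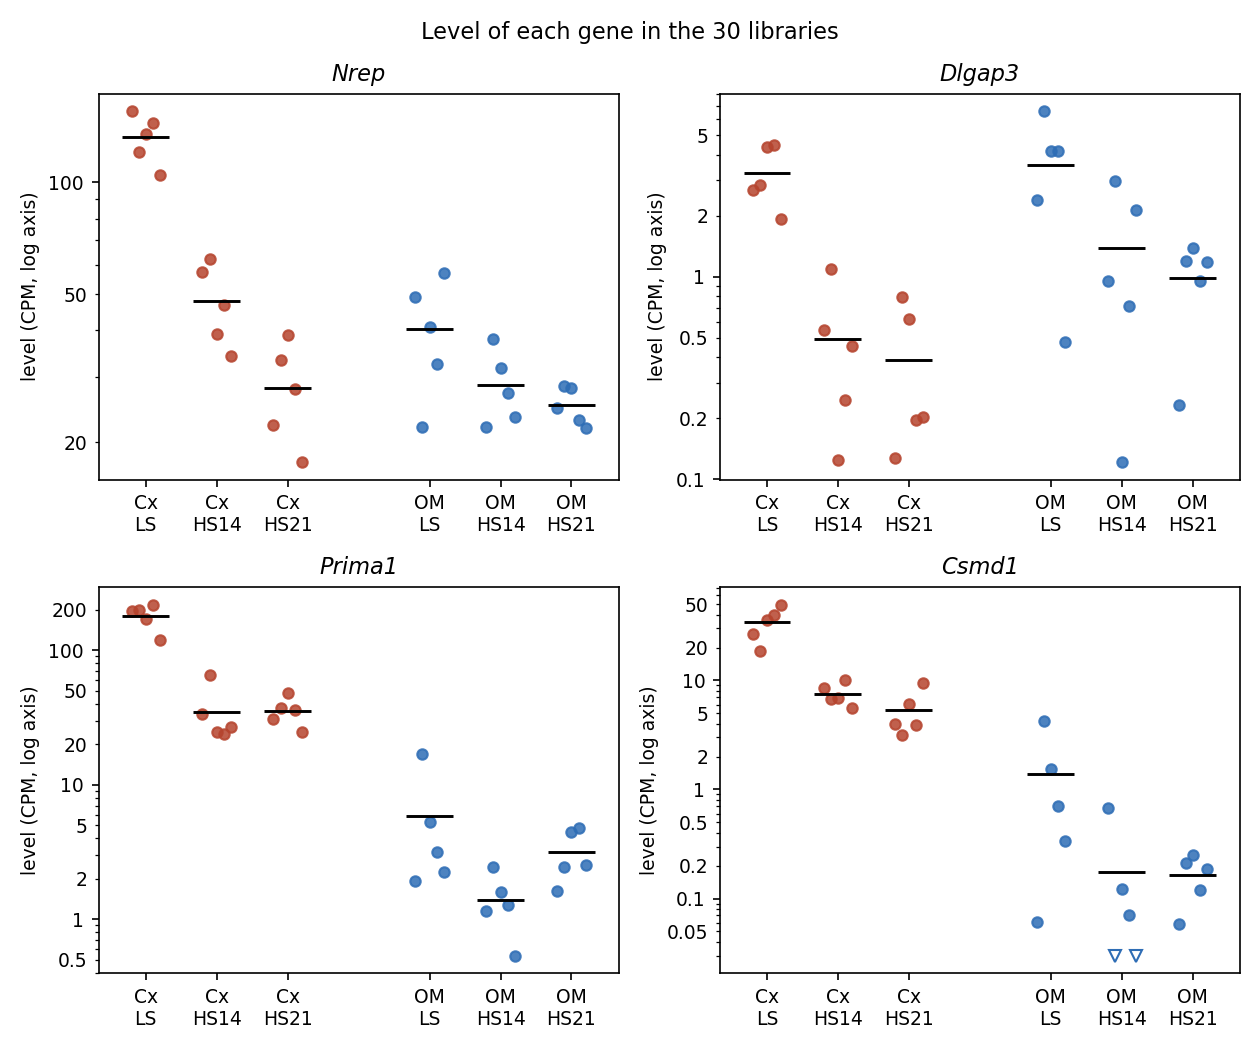
Level in CPM (log axis) of each gene in every library of the Cx (red) and the OM (blue) by diet group, with a point for each of the 5 libraries and a line at the group mean. In the Cx every HS point lies below every LS point for all 4 genes, and open triangles mark the OM libraries with no *Csmd1* count, which have no place on a log axis.

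Per length of the gene, *Nrep* was the most expressed of the 4 in every group. In the Cx on LS it was at 304 ± 45.4 FPKM (counts scaled by gene length and library total), *Prima1* at 52.4 ± 11.2, *Csmd1* at 2.92 ± 1.02 and *Dlgap3* at 0.882 ± 0.304 FPKM (SD, n = 5). These levels do not overlap between the genes on LS. The order was the same at HS21, with means of 63.8, 10.2, 0.455 and 0.105 FPKM. The FPKM of *Nrep* rests on a gene length of only 435 bases, so its place in the order depends on that length.

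The OM took no part in the choice of the genes, so the comparison of HS with LS was tested there, with edgeR's quasi-likelihood test and adjustment over all genes. The mean of each gene was below LS at both HS times, but the groups overlapped in every gene and 0 of the 3 genes that passed the filter were called at either time. *Csmd1* was below the filter. Over all genes edgeR called 1 of 14417 raised (0.00694%) and 0 lowered (0%) at HS14, with 617 and 209 at an unadjusted P under 0.05 and 90 and 20 by DESeq2. At HS21 it called 93 of 14555 raised (0.639%) and 19 lowered (0.131%), with 1012 and 625 at an unadjusted P under 0.05 and 555 and 166 by DESeq2. Every HS library was below every LS library in 0.486% of the genes at HS14 and 1.04% at HS21, and in none of the 4 genes at either time.

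*Nrep* in the OM was at 49.1, 22.0, 40.7, 32.4 and 57.0 CPM in the LS libraries, at 22.0, 37.9, 31.7, 27.2 and 23.4 CPM at HS14 and at 24.7, 28.3, 27.9, 22.9 and 21.8 CPM at HS21. The HS21 libraries lay below all LS libraries other than replicate 2, which was among the lowest of the tissue. The log2 ratio to LS was −0.50 (SE 0.25) at HS14 (adjusted P = 0.962 by edgeR) and −0.68 (SE 0.22) at HS21 (adjusted P = 0.225 by edgeR). Without replicate 2 of LS the ratio at HS14 was −0.66 (SE 0.20, adjusted P = 0.674 by edgeR). At HS21 it was −0.83 (SE 0.15) without that library, and its adjusted P by edgeR was 0.0492, so that 1 library decided this call. DESeq2 without that library gave −0.83 (SE 0.18) and an adjusted P of 0.000451 at HS21.

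*Dlgap3* was as high in the OM as in the Cx on LS, and more variable. The OM libraries were at 2.40, 6.58, 4.20, 4.20 and 0.474 CPM on LS, at 0.949, 2.99, 0.122, 0.714 and 2.14 CPM at HS14 and at 0.232, 1.19, 1.39, 0.958 and 1.18 CPM at HS21. Replicate 5 of LS, with 7 read pairs, was lower than most HS libraries. Against LS the log2 ratio was −1.40 (SE 0.75) at HS14 (adjusted P = 0.994 by edgeR) and −1.85 (SE 0.61) at HS21 (adjusted P = 0.230 by edgeR). Without replicate 2 of LS these were −1.08 and −1.53.

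*Prima1* was far lower in the OM than in the Cx, and its OM values turned on 1 library. They were 1.91, 16.8, 5.28, 3.18 and 2.24 CPM on LS, 1.15, 2.45, 1.58, 1.28 and 0.536 CPM at HS14 and 1.63, 2.45, 4.41, 4.73 and 2.54 CPM at HS21. Against LS the log2 ratio was −2.02 (SE 0.64) at HS14 (adjusted P = 0.594 by edgeR) and −0.89 (SE 0.60) at HS21 (adjusted P = 0.682 by edgeR). Without replicate 2 of LS it was −1.13 (SE 0.42) at HS14 and −0.011 (SE 0.39) at HS21. Of the 5 HS14 libraries, 4 were below the lowest LS library. The lowest of these, replicate 10 at 0.536 CPM, held 3 read pairs and had the lowest total count of all libraries.

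*Csmd1* was close to the limit of detection in the OM. The LS libraries held 1, 50, 24, 11 and 5 read pairs (0.0615, 4.27, 1.53, 0.699 and 0.339 CPM), the HS14 libraries 10, 0, 2, 1 and 0 and the HS21 libraries 1, 3, 4, 2 and 3. Replicate 2 of LS held the most. The count of 0 in replicates 7 and 10 of HS14 allows a level of up to 0.179 and 0.536 CPM (3 counts), counting error only. With no filter edgeR gave a log2 ratio of −2.77 (SE 1.10, adjusted P = 0.833) at HS14 and −2.98 (SE 0.91, adjusted P = 0.231) at HS21. DESeq2 gave −3.05 (SE 0.93) and an adjusted P of 0.0326 at HS21, the only call for 1 of the 4 genes among the alternatives that kept all libraries. That call rested on replicate 2 of LS. When it was left out DESeq2 gave an adjusted P of 0.220 at HS21, and edgeR with no filter gave −1.77 (SE 1.05, adjusted P = 0.885) at HS14 and −1.96 (SE 0.75, adjusted P = 0.351) at HS21.

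**Figure D2:**
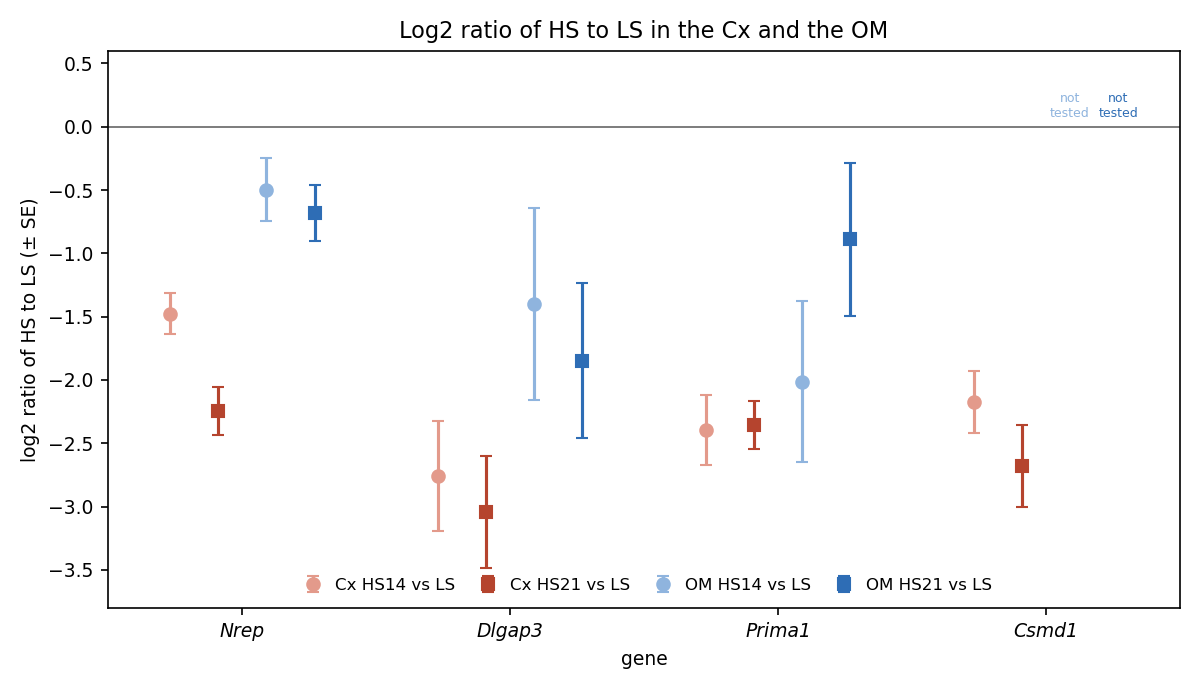
Ratio of HS to LS on the log2 axis, with SE bars, for each gene at HS14 (circles) and HS21 (squares) in the Cx (red) and the OM (blue), from edgeR. The Cx values run from −1.48 to −3.05 and chose the genes, the OM values run from −0.50 to −2.02 with no call, and *Csmd1* was below the filter on low counts in the OM.

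In replicate 2 of OM LS the cortical markers and 3 of the 4 genes were high together. Besides *Slc12a3* and *Slc34a1*, the proximal glucose transporter *Slc5a2* was at 63.3 CPM there, against 1.35 to 38.9 CPM in the other OM libraries. The thick ascending limb cotransporter *Slc12a1* was at 2317 against 3332 to 9527 CPM. *Umod*, another marker of that segment, was at 7427 CPM, within the 5711 to 13531 CPM of the other OM libraries. *Prima1* was at 16.8 CPM in this library and at 1.91 to 5.28 in the other 4 of LS, *Csmd1* at 4.27 against 0.0615 to 1.53 and *Dlgap3* at 6.58 against 0.474 to 4.20. *Nrep* went the other way, at 22.0 CPM against 32.4 to 57.0. The part of cortical tissue in these values was not tested.

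**Figure D3:**
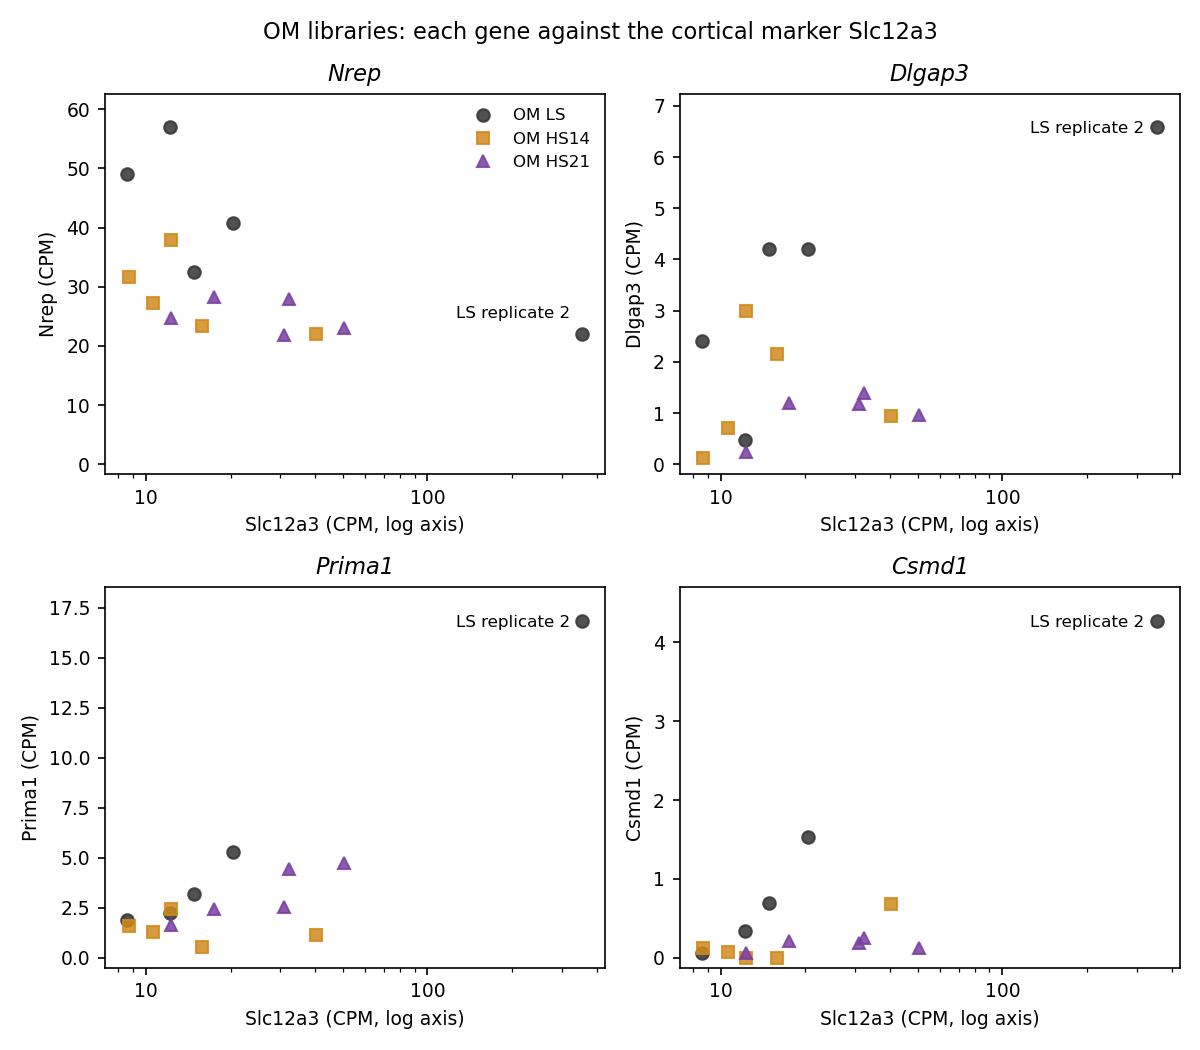
Level of each gene (CPM, linear axis) against the cortical marker *Slc12a3* (CPM, log axis) in the 15 OM libraries, with symbols for the diet groups. Replicate 2 of LS lies far to the right at 354 CPM of *Slc12a3* and is the highest OM library for *Dlgap3*, *Prima1* and *Csmd1*, but among the lowest for *Nrep*.

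The genes also differed in how they were divided between the tissues. On LS *Prima1* in the OM was at 3.25% of its Cx mean and *Csmd1* at 4.06%, and every OM library was below every Cx library on all 3 diets. Without replicate 2 of OM LS these shares were 1.74% and 1.93%. *Nrep* in the OM was at 30.4% of the Cx mean on LS, at 59.4% at HS14 and at 89.8% at HS21. The OM libraries were below all Cx libraries on LS, 4 of 5 were at HS14 and 0 of 5 at HS21. The OM mean of *Nrep* was 40.2 ± 13.7 CPM on LS and 25.1 ± 2.92 at HS21 (SD, n = 5), so the Cx came down to the level of the OM. *Dlgap3* overlapped between the tissues on every diet, with means of 3.26 ± 1.13 CPM in the Cx and 3.57 ± 2.28 in the OM on LS (SD, n = 5). The log2 ratio of OM to Cx on LS was −1.73 (SE 0.23) for *Nrep*, 0.12 (SE 0.52) for *Dlgap3*, −4.97 (SE 0.60) for *Prima1* and −4.71 (SE 0.68) for *Csmd1*. These ratios without replicate 2 of OM LS were −1.58 (SE 0.17), −0.22 (SE 0.50), −5.86 (SE 0.32) and −5.70 (SE 0.53), so the sign for *Dlgap3* turned. The Cx LS libraries took part in the choice, so no test is given.

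The 4 genes did not vary alike from library to library within a diet group. Over the 15 Cx libraries, which share the diet groups that chose the genes, Pearson r of log2 CPM was 0.949 for *Dlgap3* and *Prima1*, 0.915 for *Nrep* and *Dlgap3* and 0.912 for *Nrep* and *Prima1*. With each diet group's mean subtracted, these were 0.767, 0.703 and 0.792. *Csmd1* correlated with the others over all Cx libraries at 0.793 to 0.848, but at −0.349 to −0.150 within the diet groups. In Cx LS, for instance, replicate 5 was the highest of its group for *Csmd1* (49.5 CPM) and the lowest for *Nrep*, *Dlgap3* and *Prima1* (105, 1.93 and 118 CPM). In the OM *Nrep* had r of −0.077 to 0.039 with the other 3 over the 15 libraries. Within the diet groups these were −0.415 with *Dlgap3*, −0.391 with *Prima1* and −0.687 with *Csmd1*. Leaving out replicate 2 of LS gave −0.281, 0.195 and −0.454. These are descriptions of few libraries, and OM counts of *Csmd1* and *Dlgap3* are sparse.

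**Figure D4:**
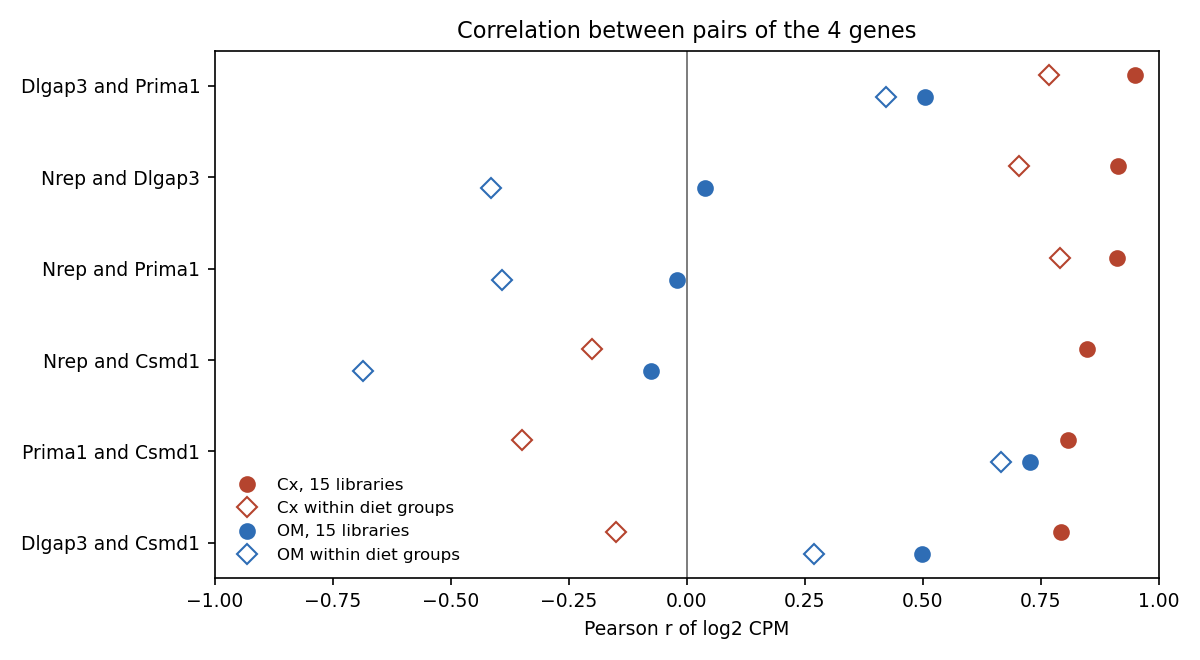
Pearson r of log2 CPM for the 6 pairs of the 4 genes, over the 15 libraries of a tissue (filled circles) and with the mean of each diet group subtracted (open diamonds), for the Cx (red) and the OM (blue). Pairs with *Csmd1* fall below 0 in the Cx once the diet means are removed, while the other 3 pairs stay at 0.703 to 0.792.

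For each gene the 3 protein-coding genes with the most similar log2 CPM over the 15 Cx libraries were sought among 13346 with a mean of at least 1 CPM. For *Nrep* they included *Pcnx* (r = 0.980) and *Gosr2* (0.967), a Golgi SNAP receptor. *Pcnx* went from 174 CPM on LS to 142 at HS14 and 120 at HS21, a smaller change than that of *Nrep*. For *Dlgap3* they were *Prima1* (0.949), *Gosr2* (0.931) and *Tmem37* (0.929), and for *Prima1* they were *Tmem37* (0.962), *Dlgap3* (0.949) and *Cacng4* (0.936), which encodes a calcium channel gamma subunit. For *Csmd1* they were *Ephx1* (0.953), the microsomal epoxide hydrolase, *Aco1* (0.939), the cytosolic aconitase, and *Kcmf1* (0.923). In the 15 OM libraries the same pairs had r of 0.083 and −0.318 for *Nrep*, 0.504 to 0.638 for *Dlgap3*, −0.205 to 0.581 for *Prima1* and 0.408 to 0.640 for *Csmd1*. Leaving out replicate 2 of OM LS gave 0.124 and −0.171, 0.298 to 0.507, −0.205 to 0.478, and 0.276 to 0.385. The Cx libraries share the diet groups. With the diet means subtracted, r in the Cx was 0.853 for *Nrep* with both *Pcnx* and *Gosr2*, 0.614 to 0.808 for the genes beside *Dlgap3*, 0.767 to 0.798 for those beside *Prima1* and 0.442 to 0.678 for those beside *Csmd1*. Spearman's rho, which uses ranks, was 0.825 to 0.900 beside *Dlgap3* and 0.786 to 0.900 beside *Prima1*. By rho only *Pcnx* for *Nrep*, *Dlgap3* for *Prima1* and *Ephx1* for *Csmd1* stayed among the 3 most similar, of the genes named here.

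The genes around *Nrep* in the TGF-beta pathway moved in both directions in the Cx. Of 22 pathway genes and targets tested at HS14, 1 rose and 1 fell, against 1.14% of all genes raised (162) and 1.18% lowered (168). *Ltbp4*, a binding protein of latent TGF-beta, rose by 0.54 on the log2 scale (SE 0.12, adjusted P = 0.0435 by edgeR), and the inhibitory *Smad7* fell by 0.33 (SE 0.063, adjusted P = 0.0257). At HS21 7 rose and 5 fell, against 18.9% of all genes raised (2702) and 20.5% lowered (2936). The ligand *Tgfb1* rose by 0.87 (SE 0.14, adjusted P = 0.000511 by edgeR), and the target *Tgfbi* rose by 0.89 (SE 0.17). *Ltbp1* fell by 0.44, *Smad7* by 0.31 and *Smad4*, the common mediator, by 0.25. With libraries scaled to total counts, which moved the median of all genes by 0.13 in this comparison and gave 4401 raised and 1653 lowered, 8 of the 22 were raised and *Smad7* was the only one lowered. The median log2 ratio of the 22 was 0.012 at HS21, against 0.0046 for all genes. In the OM 0 of 22 were called at either time. *Smad7* was called there at HS21 when replicate 2 of LS was left out, at −0.52 (adjusted P = 0.0261 by edgeR).

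None of the relatives of *Dlgap3* had as large a log2 ratio in the Cx. *Dlgap1* was at 6.96 CPM in the Cx on LS and at 4.63 at HS21 (log2 ratio −0.59, SE 0.23, adjusted P = 0.0600 by edgeR), and *Dlgap4* at 37.9 and 41.6 CPM (0.13, adjusted P = 0.214 by edgeR). *Dlgap5*, whose product acts on the mitotic spindle, was at 6.52 and 3.23 CPM and fell by 1.02 (SE 0.24, adjusted P = 0.00625 by edgeR). *Dlgap2* had a mean of 0.0301 CPM on LS and was not tested. Of the postsynaptic scaffold genes tested, 0 of 16 were called at HS14, and at HS21 3 of 17 rose and 5 fell, where 18.9% of all genes were raised and 20.5% lowered. Besides *Dlgap5*, the scaffold genes *Homer2* and *Homer1* fell by 1.04 (SE 0.088) and 0.62 (SE 0.097), while *Dlg4*, *Shank3* and *Dlg3* rose by 0.51, 0.44 and 0.33. *Dlg1* and *Dlg5* fell by 0.28 and 0.36. Scaled to total counts, 6 of the 17 rose and 3 fell, and the calls of *Dlg1* and *Dlg5* were lost. The median log2 ratio was −0.060 at HS14 and 0.11 at HS21, and in the OM 0 of 17 were called at either time.

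The enzymes that PRIMA1 anchors were not called in the Cx. *Ache*, acetylcholinesterase itself, was at 2.52 CPM in the Cx on LS, 2.20 at HS14 and 3.15 at HS21 (log2 ratio at HS21 0.32, SE 0.20, adjusted P = 0.223 by edgeR). *Bche* was at 1.37, 1.67 and 2.25 CPM (0.71, SE 0.33, adjusted P = 0.112 by edgeR), and *Colq*, the collagen-like anchor of the same enzymes at the muscle endplate, at 0.521, 0.423 and 0.569 CPM, below the filter. *Chat* and *Slc5a7*, which make acetylcholine and take up choline, were listed at 0 in every group. In the Cx 6 of the 20 cholinergic genes passed the filter. None was called at HS14, and *Rapsn*, which clusters nicotinic receptors, rose by 0.71 (SE 0.14, adjusted P = 0.00232 by edgeR) at HS21. Among all genes 1.14% were raised at HS14 and 18.9% at HS21. With libraries scaled to total counts, 2 of the 6 rose at HS21, and their median log2 ratio was 0.60 instead of 0.47. In the OM 0 of 5 were called at either time.

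Complement genes rose in the Cx, where *Csmd1* was lower. Of 19 CUB, sushi and complement genes tested, 3 were called raised at HS14 and 12 at HS21, and none was called lowered. The shares of all genes raised were 1.14% and 18.9%. The median log2 ratios of the list were 0.61 and 0.71. *C2* rose by 1.34 (SE 0.31) at HS14 and by 2.94 (SE 0.58) at HS21. *C3*, the central component, also rose at both times, by 2.45 (SE 0.47) at HS21. *C1s* rose by 1.07 (SE 0.22) at HS14 and *C4b* by 1.93 (SE 0.47) at HS21. The close relatives *Csmd2* and *Csmd3* were at 0.209 and 0 CPM on LS and were not tested. *Sez6*, *Sez6l2* and *Sez6l* of this list had log2 ratios of −1.13, 0.27 and −0.21 at HS14 and −0.91, −0.64 and 0.14 at HS21. None of these was called, with a lowest adjusted P of 0.0613 by edgeR. In the OM 0 of 17 were called at HS14 and 2 of 19 at HS21, where *C3* rose by 2.01 (SE 0.31, adjusted P = 0.0280 by edgeR) and *C4b* by 2.42 (SE 0.40, adjusted P = 0.0302 by edgeR). Both were also called at HS21 without replicate 2 of LS, at 1.91 (adjusted P = 0.0418 by edgeR) and 2.72 (adjusted P = 0.0383 by edgeR). Leukocyte markers rose beside them, 5 of 8 tested at HS14 and 8 of 8 at HS21 in the Cx. Their summed level was 1033 to 1187 CPM on LS, 1201 to 1809 at HS14 and 1436 to 5700 at HS21. In the OM 3 of 8 leukocyte markers were raised at HS21 (list median 1.58 on the log2 scale), and all 3 calls were lost when libraries were scaled to total counts. All 3 were kept with RLE scaling (adjusted P 0.0299 to 0.0391 by edgeR) and without replicate 2 of LS (0.0401 to 0.0419 by edgeR). The summed level of the leukocyte markers in the OM was 450.3 to 1390 CPM on LS and 1692 to 3629 at HS21. The part of leukocytes in the complement values was not tested.

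Markers of the cells that could hold the 4 transcripts were read beside them in the Cx. Of 12 nerve fibre markers only 4 passed the filter, and *Th* had a mean of 0 CPM on LS. None was called at HS14, and 1 rose at HS21. Of 6 Schwann cell markers 2 were tested, with none called at HS14 and 1 raised at HS21. Among all genes 1.14% were raised at HS14 and 18.9% at HS21. The summed level of the nerve fibre markers was 15.8 to 27.3 CPM on LS, 14.3 to 32.3 at HS14 and 13.5 to 22.0 at HS21, so the diets overlapped.

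Most proximal tubule markers were also lower in the Cx on HS, with smaller log2 ratios than the 4 genes. Of 10 markers 2 fell at HS14 and 9 at HS21, with median log2 ratios of −0.16 and −0.69. The shares of all genes lowered were 1.18% and 20.5%. *Slc7a13* was not called at HS21 and went the other way, from 63.3 CPM on LS to 126 (log2 ratio 0.98, SE 0.50, adjusted P = 0.144 by edgeR). The summed level of the 10 markers was 19446 to 21502 CPM on LS, 14206 to 19713 at HS14 and 11255 to 15080 at HS21. Of 4 macula densa and juxtaglomerular markers tested, *Ptgs2*, the inducible cyclooxygenase, had a log2 ratio of −1.82 (SE 0.36, adjusted P = 0.0277 by edgeR) at HS14. At HS21 *Ptgs2* was at −1.46 (SE 0.41, adjusted P = 0.0139 by edgeR) and *Pappa2* at −1.24 (SE 0.32, adjusted P = 0.00932 by edgeR). Their summed level overlapped between the diets, at 35.6 to 110 CPM on LS and 31.0 to 73.1 at HS21. The part of these cells in the values of the 4 genes was not tested.

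Markers of other segments and cell types rose in most lists at HS21. All 5 intercalated cell markers, 6 of 7 connecting tubule and principal cell markers, 6 of 7 podocyte markers and 2 of 2 distal convoluted tubule markers tested rose in the Cx at HS21. At HS14 these numbers were 0, 1, 0 and 1, where 1.14% of all genes were raised. Of 6 thick ascending limb markers 3 rose and 1 fell, of 6 endothelial markers 3 rose, and of 10 mural and stromal markers 2 rose and 1 fell at HS21. Over all genes 18.9% were raised and 20.5% lowered at HS21. The median log2 ratios of these lists at HS21 ran from −0.023 for the mural and stromal to 0.80 for the connecting tubule and principal cell markers.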

How the data were processed

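Right kidney cortex and outer medulla of rats on LS, HS14 and HS21 were measured by mRNAseq, with 5 libraries in each of the 6 groups, as the labels assign them. Per the submitters' processing notes the tools were HISAT2 2.0.5, StringTie 1.3.3b and featureCounts 1.5.0-p3, and the gene models are those of Rnor_6.0. The deposited counts are whole read pairs per gene, without strand, so reads of overlapping genes cannot be told apart. The authors also deposited FPKM, the counts scaled by gene length and library total. Their group means of scaled counts (a signal column), log2 fold changes and p-values of their own comparisons were deposited too and were not used.

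Counts were filtered with filterByExpr, scaled by TMM and tested with edgeR 4.0.16 (R 4.3.3), by the quasi-likelihood F-test on the 10 libraries of a comparison, with Benjamini-Hochberg adjustment over all genes tested and a threshold of 0.05. CPM were set on one TMM scale over the 30 libraries. Log2 CPM used a prior count of 2. The SE of a log2 ratio was its size divided by the square root of F. Alternatives were DESeq2 1.42.0, limma 3.58.1 on log2(FPKM + 1), other scalings, no filter, all 15 libraries of a tissue, a replicate block and leaving out each library. The script was tested on simulated data with 200 changed genes. Tables and plots used Python 3.11.15.

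The 4 genes, the gene lists and the cell markers were chosen with earlier results of these data known. Genes named from a pathway list are at most the 3 called members with the largest log2 ratios in each direction, and the close relatives and enzymes of the 4 genes. *Dlg1*, *Dlg5*, *Chat*, *Slc5a7*, *Sez6*, *Sez6l*, *Sez6l2*, *Th*, *Slc7a13*, *Umod*, *Ptgs2* and *Pappa2* were named after their values were seen. The 3 genes most similar to each of the 4 were ranked by Pearson r of log2 CPM. A few genes that these rules name are not reported here. Intervals and limits of detection cover counting error only.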

Additional observations from a re-analysis of the deposited data

Results flagged for a closer look

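Of 24 groups of 5 libraries checked, those of the 4 genes in each tissue and diet, 1 held a library far from the others. *Dlgap3* in the OM at HS21 was lowest in replicate 11, at a log2 CPM of −1.45 (4 read pairs, 0.232 CPM), while the other 4 libraries were at 0.958 to 1.39 CPM. The gap was larger than Dixon's 95% critical value of 0.71 for the share of the range. Chance flags about 1 in 20 such groups.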

How the results depend on the processing

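The log2 ratios of *Nrep*, *Dlgap3*, *Prima1* and *Csmd1* in the Cx kept their direction under all 16 alternatives at HS14 and at HS21. These Cx values chose the genes, and the HS and LS libraries did not overlap. The kept direction is therefore no independent support. On log2(FPKM + 1), which shrinks the ratios of genes near 1 FPKM or below, *Dlgap3* was at −0.72 and *Csmd1* at −1.22 at HS14, and at −0.76 and −1.40 at HS21. In the OM *Nrep* and *Dlgap3* kept their direction under every alternative. *Prima1* at HS21 went from −0.89 to −0.011 (SE 0.39) without replicate 2 of LS, and to 0.0014 by DESeq2 without it, so it showed no direction there. Among the 3 tested genes 0 to 1 were called at HS21 when libraries were left out in turn. That call was *Nrep* without replicate 2 of LS, and its log2 ratio ran from −0.83 to −0.53 over the libraries left out. DESeq2 called 1 of the 4 genes in the OM at HS21, which was *Csmd1*, and did not call it without replicate 2 of LS (chosen after seeing the data). Without that library DESeq2 called *Nrep* at HS21, with an adjusted P of 0.000451. *Dlgap3* came nearest among the others, with a lowest adjusted P of 0.0552 over its alternatives at HS21.

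The counts over all genes moved more. DESeq2 called 500 raised and 414 lowered in the Cx at HS14, 90 and 20 in the OM at HS14 and 555 and 166 in the OM at HS21. Scaled to total counts, 4401 were raised and 1653 lowered in the Cx at HS21, 0 were raised in the OM at HS14, and 35 were raised and 9 lowered in the OM at HS21. With all 15 libraries of a tissue in the fit, 83 were raised in the Cx at HS14, 2 in the OM at HS14 and 179 in the OM at HS21. With no filter 0 were raised in the OM at HS14. Leaving out each library in turn gave 42 to 274 raised and 43 to 232 lowered in the Cx at HS14, both lowest without replicate 4 of LS. It gave 0 to 4 raised in the OM at HS14, and 9 to 159 raised and 0 to 31 lowered in the OM at HS21, both lowest without replicate 3 of LS. Leaving out both replicate 2 of LS and replicate 10 of HS14, chosen after seeing the data, gave 4 raised and 2 lowered in the OM at HS14. The cause of these moves was not tested.

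Equal library numbers in the Cx and the OM are not stated to be the same rat. Deviations from the group means correlated at −0.085 to 0.533 between libraries of equal number, over 0.1 in 10 of 15 pairs, and 12 of 15 correlated best with their own number, a hint from the data and not the design. With a replicate block the OM to Cx ratio of *Dlgap3* on LS was −0.12 instead of 0.12, and those of the other 3 genes kept their sign. Leaving out replicate 2 of OM LS, also chosen after seeing the data, gave −0.22 for *Dlgap3*, −5.86 for *Prima1* and −5.70 for *Csmd1*. The depth limits *Csmd1* in the OM, with 0 to 50 read pairs per library, and *Dlgap3* on HS in the Cx, with 2 to 15.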
